A study of Mus musculus with 16 samples.

Results

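The methyl-CpG binding protein genes are 7 mouse genes chosen by name rather than by a measured value, though with earlier results of these data known: Mbd1, Mbd2, Mbd3, Mbd4, Zbtb33, Zbtb4 and Zbtb38. All 7 were found by Ensembl identifier among 35975 genes, and all 7 were among the 18489 genes that passed the filter on low counts. The cells were the mouse embryonic stem cell line ES-E14TG2a (E14), either of the genotype written TKO in the labels or wild type (WT), with 2 libraries per group and 16 libraries of bulk messenger RNA in all. TKO and WT day 0 cells had been kept on fibronectin in serum-free 2i medium, which blocks Gsk3 and MEK, together with LIF and vitamin C. TKO and WT cells of days 2, 4 and 7 had been moved to Fgf2 and Activin A with a little serum replacement, which drives epiblast-like differentiation, and were split once more at day 4. The labels call the libraries biological replicates and do not say whether TKO is 1 clone or whether a number marks a shared day, so p-values measure the spread between these libraries.

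Methylated cytosines in CpG pairs are read by proteins of several families. Mbd1, Mbd2 and Mbd4 bind methylated CpG through a methyl-binding domain, while the same domain of mammalian Mbd3 has little preference for methylated DNA. Zbtb33 (Kaiso), Zbtb4 and Zbtb38 bind it through zinc fingers and carry a BTB domain for protein contacts. Most of these proteins recruit histone deacetylase complexes to silence genes. Cells in the medium of day 0 carry little DNA methylation, wild-type cells gain it on the way to the epiblast state, and cells without DNA methyltransferases cannot.

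The promoters of the zinc-finger genes with the clearest rise over time (Zbtb33) and the widest differences between genotypes (Zbtb4) are shown because both hold CpG pairs, which are what these proteins read when methylated. They are the 250 bases before the start of each gene on the plus strand of GRCm38.p6, credited to RefSeq, in lower case with each CpG in capitals. DNA methylation itself was not analysed here. The table matched 5 of the 7 genes by symbol, all but Mbd1 and Mbd2.
Zbtb33, chrX:38189543-38189792: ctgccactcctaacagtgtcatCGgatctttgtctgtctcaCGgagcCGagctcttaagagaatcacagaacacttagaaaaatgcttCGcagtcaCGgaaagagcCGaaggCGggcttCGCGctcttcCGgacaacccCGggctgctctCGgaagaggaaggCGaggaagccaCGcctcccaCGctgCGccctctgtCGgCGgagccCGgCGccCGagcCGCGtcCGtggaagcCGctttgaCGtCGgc
Zbtb4, chr11:69765662-69765911: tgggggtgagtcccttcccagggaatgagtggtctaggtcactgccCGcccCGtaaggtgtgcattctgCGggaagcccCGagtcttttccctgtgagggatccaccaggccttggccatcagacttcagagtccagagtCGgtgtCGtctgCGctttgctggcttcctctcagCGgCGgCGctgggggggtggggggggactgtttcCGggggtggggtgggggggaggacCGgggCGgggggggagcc
The Zbtb33 window held 27 CpG pairs, a number reached by 8.56% of 32851 promoters of the same length, whose median was 6. The Zbtb4 window held 13, a number reached by 31.5% of them. Both genes thus start in windows with more CpG pairs than the median promoter, which is not particular to them. The Mbd3 window held 14, the Mbd4 window 22, and the windows at different starts of Zbtb38 held 6, 31 and 23.

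Transcripts of the DNA methyltransferase genes were examined first, because the labels do not expand TKO, a term used for cells lacking Dnmt1, Dnmt3a and Dnmt3b. Dnmt1, which maintains methylation after replication, stood between 36.2 and 55.9 CPM (counts scaled to library size) in the 8 TKO libraries, against 310 to 545 CPM in the 8 WT libraries. Dnmt3a, a de novo methyltransferase, was lower in TKO on days 0, 2 and 7 and was not called at day 4, where it had 187 and 33.9 CPM in TKO against 297 and 380 CPM in WT. Dnmt3b was not called at day 0, with 29.3 and 28.9 CPM in TKO against 27.3 and 29.3 CPM in WT, and was lower on each later day. The estimated counts of a library added up to 33168178 to 47064338 in TKO and 39799498 to 58197630 in WT. The median gene differed between the WT day 0 libraries by 0.27 on the log2 scale, against 0.07 to 0.19 in the other 7 groups, and TKO day 4 had the most genes over 2-fold apart (168 at 5 CPM or more). Naive markers (8 genes, such as Zfp42 and Esrrb) summed to 3199 and 3187 CPM in TKO and 2450 and 2934 CPM in WT at day 0, and to 32.6 and 37.4 CPM in TKO and 19.8 and 17.4 CPM in WT at day 7. Markers of the formative and primed epiblast (5 genes, such as Fgf5 and Otx2) summed to between 14.3 and 18.5 CPM at day 0 and to at least 354 CPM in every later library.

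Mbd3, a core subunit of the nucleosome remodelling and deacetylase complex NuRD that is needed for embryonic stem cells to commit to lineages, was the most abundant of the 7 on each day in both genotypes. Its level in TPM, which corrects for transcript length, was 155 and 157 in TKO and 116 and 115 in WT at day 0, and 270 and 287 in TKO and 278 and 287 in WT at day 2. Mbd3 alone made up between 59.0% and 87.0% of the summed TPM of the 7 genes in a library. Zbtb4 was lowest in each group, between 0.18 and 2.12 TPM over all libraries. The other 5 lay between 3.28 TPM (Zbtb38 in a WT day 7 library) and 25.8 TPM (Mbd4 in a TKO day 0 library). Their order shifted with time, and these orders are descriptions with no test.

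**Figure D1:**
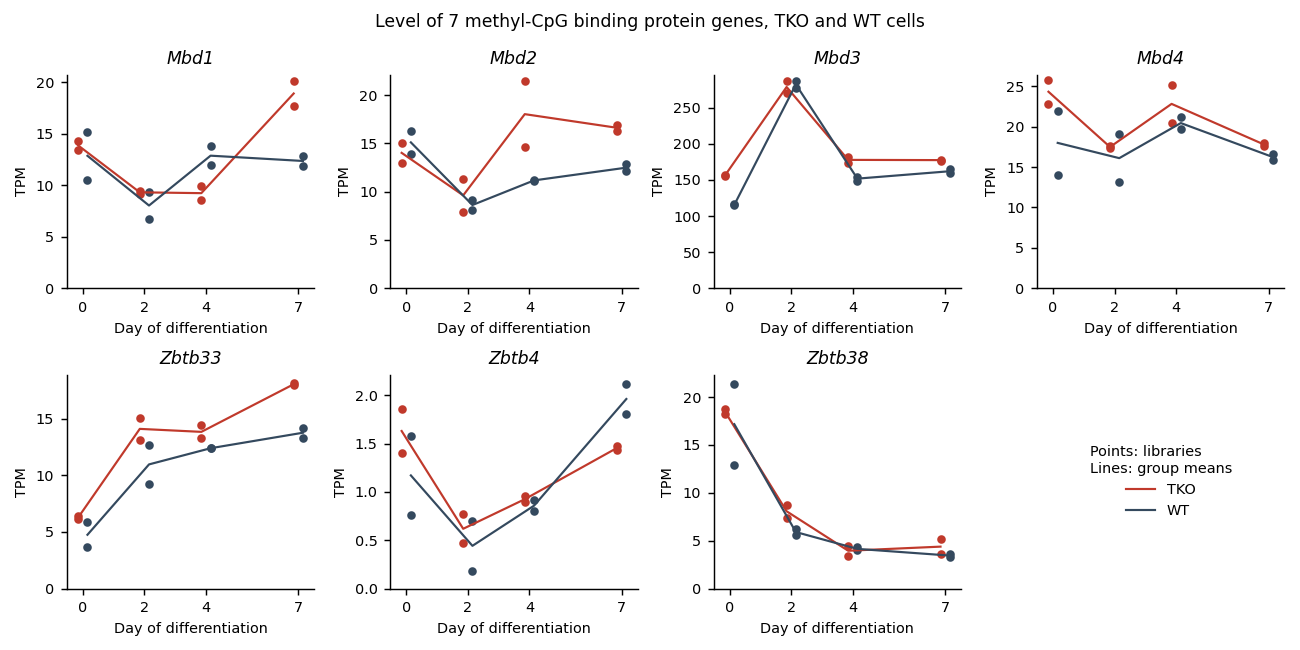
Level of the 7 genes in TPM against the day of differentiation, with a point per library and a line through the mean of 2 libraries per group, TKO in red and WT in dark blue. Mbd3 peaked at day 2 at 270 to 287 TPM, Zbtb33 stayed at 9.22 TPM or above after day 0, and Zbtb38 fell to between 3.28 and 5.16 TPM at day 7.

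In TKO day 0 cells, Mbd3 was followed by Mbd4 at 24.3 ± 2.1, Zbtb38 at 18.5 ± 0.4, Mbd2 at 14.03 ± 1.47, Mbd1 at 13.9 ± 0.6, Zbtb33 at 6.28 ± 0.19 and Zbtb4 at 1.63 ± 0.32 TPM (SD, n = 2). Only Mbd2 and Mbd1 overlapped with their neighbour in that order. WT day 0 cells had the same first and last genes, but Mbd4, Zbtb38, Mbd2 and Mbd1 overlapped each with the next. By day 7 the order after Mbd3 in TKO was Mbd1, Zbtb33, Mbd4, Mbd2, Zbtb38 and Zbtb4, with Mbd1 at 18.9 ± 1.7 and Mbd4 at 17.8 ± 0.3 TPM overlapping Zbtb33 at 18.0 ± 0.1 TPM between them (SD, n = 2). In WT at day 7 it was Mbd4, Zbtb33, Mbd2, Mbd1, Zbtb38 and Zbtb4, of which Mbd2 and Mbd1 overlapped. By mean TPM, Zbtb38 thus ranked 3 among the 7 genes at day 0 and 6 from day 2 on in both genotypes. At WT day 0 its libraries were not separated from those of Mbd4 or Mbd2, so its rank there is not settled.

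Between day 0 and day 2, when the medium also changed, all 7 genes moved in both genotypes. Mbd3 and Zbtb33 went upward and Zbtb38, Zbtb4, Mbd1, Mbd2 and Mbd4 downward. Calls rest on edgeR's quasi-likelihood test with a threshold of 0.05 on p after Benjamini-Hochberg adjustment over all 18489 genes. At day 2 against day 0, 7 of 7 were called in TKO, where 57.0% of all genes tested were called, and 7 of 7 in WT, where 61.5% were called. At day 4 it was 4 of 7 in TKO (63.0% of all genes) and 5 of 7 in WT (63.2% of all genes). At day 7 it was 4 of 7 in TKO (67.8% of all genes) and 6 of 7 in WT (66.2% of all genes). With most genes called in each of these comparisons, the counts say little about the 7 genes in particular. In bulk samples fewer cells of a type and less RNA per cell cannot be told apart.

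Zbtb38 (ENSMUSG00000040433.16, chr9:96682770-96752831 on the minus strand of GRCm38), a zinc-finger reader of single methylated CpG pairs, had the largest change of the 7 at days 4 and 7. Its counts scaled to CPM were 60.3 and 61.1 at day 0, 29.0 and 27.7 at day 2, 14.4 and 13.8 at day 4, and 12.7 and 12.3 at day 7 in TKO. In WT they were 55.1 and 74.2, 23.0 and 20.1, 14.8 and 14.9, and 12.1 and 11.8 CPM on the same days. Each later day lay below day 0 in both genotypes with no overlap. The log2 fold change at day 7 against day 0 was -2.28 ± 0.12 in TKO (SE, edgeR adjusted p = 1.47e-09) and -2.44 ± 0.12 in WT (edgeR adjusted p = 7.47e-10).

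Zbtb33 (ENSMUSG00000048047.3, chrX:38189793-38197046 on the plus strand), which encodes Kaiso, an NCoR-recruiting reader of paired methylated CpGs, was already up by day 2. TKO cells had 19.1 and 19.4 CPM at day 0, 45.2 and 38.4 at day 2, 41.5 and 39.7 at day 4, and 48.1 and 46.8 at day 7. WT cells had 15.4 and 19.4, 42.7 and 35.7, 38.9 and 39.1, and 40.8 and 39.8 CPM on those days. Every later library exceeded every day 0 library. The rise at day 2 was 1.12 ± 0.12 in TKO and 1.17 ± 0.12 in WT on the log2 scale (SE, edgeR adjusted p = 1.88e-06 and 1.03e-06), and at day 7 it was 1.30 ± 0.12 in TKO and 1.21 ± 0.12 in WT. The Zbtb33 exons share 474 of their 5122 annotated bases with Tmem255a on the other strand. Whether counting used strand is not given in the sources used here, and Tmem255a itself had at most 37 counts in a library.

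Mbd3 (ENSMUSG00000035478.14, chr10:80392539-80399550 on the minus strand) rose at day 2 alone in TKO. TKO cells had 122 CPM in each day 0 library, 191 and 198 at day 2, 133 and 140 at day 4, and 121 and 122 at day 7. WT cells had 115 and 89.9 CPM at day 0, 199 and 237 at day 2, 120 and 124 at day 4, and 122 and 125 at day 7. In both genotypes the day 2 libraries were the highest of all. The day 2 rise was 0.67 ± 0.10 in TKO (SE, edgeR adjusted p = 7.22e-05) and 1.09 ± 0.10 in WT (6.75e-07). The TKO rise minus the WT rise was -0.42 ± 0.15 (SE, edgeR adjusted p = 0.104) and was not called in the main fit. Without WT day 0 replicate 1 that difference was -0.60 and was called. The WT rises of 0.25 ± 0.10 at day 4 and 0.27 ± 0.10 at day 7 were called at adjusted p = 0.0464 and 0.0310, but both calls were lost with an offset for the mean length of each gene's transcripts in a library (the length correction), in a fit of only the libraries compared, and without WT day 0 replicate 2 or, at day 4, either WT day 4 replicate and, at day 7, WT day 7 replicate 2 (adjusted p up to 0.335 and 0.159). The day 4 call was also lost with the replicate block, with RLE scaling and in DESeq2.

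Zbtb4 (ENSMUSG00000018750.14, chr11:69765912-69784023 on the plus strand), the third zinc-finger reader, fell at day 2 and then came back. TKO cells had 5.55 and 5.83 CPM at day 0, 1.83 and 2.37 at day 2, 2.50 and 3.54 at day 4, and 3.85 and 3.91 at day 7. WT cells had 5.11 and 6.10, 1.06 and 0.83, 3.19 and 3.74, and 7.15 and 7.31 CPM. The WT day 2 values rest on 52 and 32 estimated counts. The day 2 fall was -1.43 ± 0.21 in TKO and -2.56 ± 0.22 in WT (SE, edgeR adjusted p = 4.05e-05 and 2.58e-07), the WT value being -1.56 once transcript length was allowed for. At day 4 it was lower than at day 0 in TKO (-0.92 ± 0.20, adjusted p = 0.00116) and WT (-0.70 ± 0.20, 0.00663), both calls being lost with the length correction, and the WT call without WT day 0 replicate 2 or WT day 4 replicate 1. At day 7 TKO was still lower than at day 0 (-0.55 ± 0.20, adjusted p = 0.0241, a call lost without any 1 of the 4 libraries compared and, at adjusted p = 0.365, with the length correction), and WT had 0.37 ± 0.19 (adjusted p = 0.109).

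Mbd1 (ENSMUSG00000024561.10, chr18:74267605-74282732 on the plus strand), a repressor with both methylated and unmethylated CpG binding domains, had 26.5 and 26.6 CPM at day 0, 18.4 and 18.2 at day 2, 15.9 and 18.7 at day 4, and 31.5 and 29.9 at day 7 in TKO. In WT it had 27.0 and 31.0, 20.0 and 17.6, 28.0 and 24.9, and 21.8 and 23.3 CPM. Mbd1 thus stayed low to day 4 in TKO and ended above its day 0 libraries, whereas in WT a day 4 library overlapped the day 0 range and both day 7 libraries lay below it. It fell at day 2 in TKO (-0.54 ± 0.11, SE, edgeR adjusted p = 0.000686) and WT (-0.62 ± 0.11, 0.000181). At day 4 against day 0 it fell by 0.62 on the log2 scale in TKO (SE 0.11, edgeR adjusted p = 0.000184), and the WT value was -0.13 ± 0.11 (adjusted p = 0.293). At day 7 the TKO value was 0.21 ± 0.11 (adjusted p = 0.0957), and WT fell by 0.36 (SE 0.11, adjusted p = 0.00836). That WT call was lost with the length correction (adjusted p = 0.0561) and without WT day 0 replicate 2 or WT day 7 replicate 1.

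Mbd2 (ENSMUSG00000024513.16, chr18:70568189-70626131 on the plus strand), the methyl-dependent counterpart of Mbd3 in NuRD, had 12.0 and 11.7 CPM at day 0, 7.43 and 9.64 at day 2, 13.7 and 15.7 at day 4, and 12.0 and 12.7 at day 7 in TKO. In WT it had 15.3 and 12.0, 7.66 and 9.31, 8.97 and 9.72, and 10.2 and 9.91 CPM. TKO libraries were back at or above their day 0 level from day 4, while each WT library after day 0 lay below both WT day 0 libraries. The day 2 fall was -0.47 ± 0.16 in TKO and -0.68 ± 0.15 in WT (SE, edgeR adjusted p = 0.0184 and 0.00155), the TKO call being lost without TKO day 0 replicate 1 or TKO day 2 replicate 1. The WT values of -0.54 ± 0.15 at day 4 and -0.44 ± 0.15 at day 7 (adjusted p = 0.00658 and 0.0221) were no longer called without WT day 0 replicate 1, nor the day 7 value without either WT day 7 replicate.

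Mbd4 (ENSMUSG00000030322.12, chr6:115840697-115853371 on the minus strand), a glycosylase that removes thymine or uracil mispaired with guanine at CpG sites, had 50.2 and 50.3 CPM at day 0, 37.4 and 36.1 at day 2, 49.8 and 40.2 at day 4, and 32.3 and 33.6 at day 7 in TKO. In WT it had 39.1 and 50.1, 39.8 and 31.8, 45.1 and 45.4, and 33.9 and 33.2 CPM. It was lower at days 2 and 7 in TKO without overlap, while a WT day 2 library overlapped the WT day 0 range. The day 7 value was -0.61 ± 0.13 in TKO (SE, edgeR adjusted p = 0.000922) and -0.41 ± 0.13 in WT (0.0127). The WT calls at days 2 and 7 did not survive the removal of WT day 0 replicate 2 or, at day 2, of WT day 2 replicate 2 and, at day 7, of either WT day 7 replicate (adjusted p up to 0.350 and 0.247). Both were also lost in a fit of only the libraries compared, and the day 2 call with the replicate block and the length correction. The TKO day 2 call (-0.45 ± 0.13, adjusted p = 0.00862) went to 0.0552 without TKO day 2 replicate 2. The exons of Mbd4 share 264 of 5280 annotated bases with Gm44206 on the other strand, which was not analysed here.

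**Figure D2:**
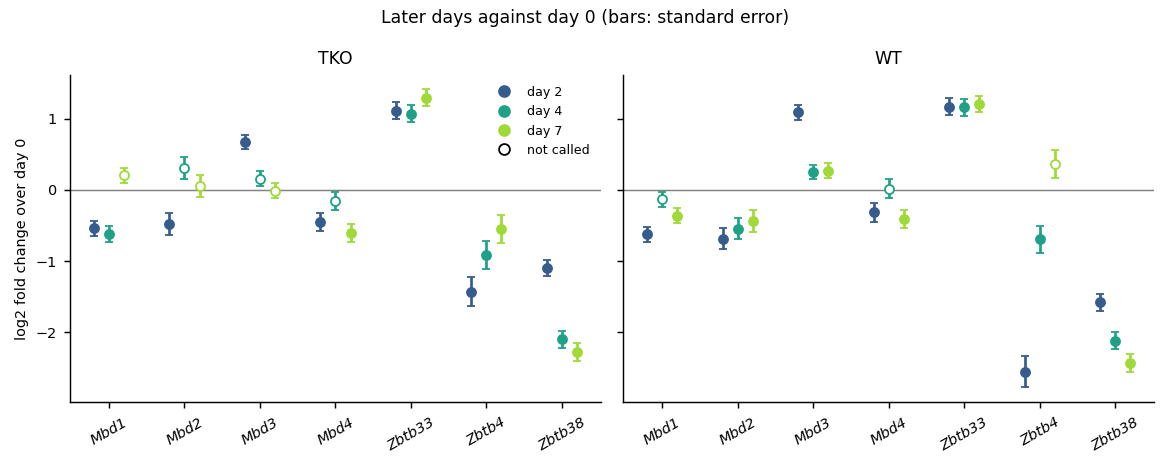
Log2 fold change over day 0 of the 7 genes at days 2, 4 and 7, in TKO (left) and WT (right), with standard errors and open points where the edgeR test did not call the gene. Zbtb38 was at -2.28 in TKO and -2.44 in WT at day 7, and Zbtb33 lay between 1.07 and 1.30 in all 6 comparisons.

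Between TKO and WT, Zbtb4, Zbtb38, Mbd2 and Mbd1 were called on at least 1 day in the main fit, and Mbd3, Mbd4 and Zbtb33 on none. At day 0, 0 of 7 were called in TKO against WT by edgeR, with 12.7% of all genes called, 1 of 7 (Mbd3) at an unadjusted p under 0.05 and 0 of 7 by DESeq2. Mbd3 was 0.26 ± 0.10 higher in TKO (SE, log2, adjusted p = 0.123), a value that came to 0.44 and was called without WT day 0 replicate 1. At day 2, 2 of 7 were called (13.4% of all genes), at day 4, 2 of 7 (28.9% of all genes), and at day 7, 2 of 7 (44.5% of all genes). Averaged over the 4 days, 0 of 7 were called by edgeR, with 44.7% of all genes called, 2 of 7 (Mbd2 and Zbtb33) at an unadjusted p under 0.05, and 1 of 7 (Mbd2) by DESeq2.

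At day 2 the called genes were Zbtb4 and Zbtb38, both higher in TKO. Zbtb4 had 1.83 and 2.37 CPM in TKO, against 1.06 and 0.83 CPM in WT, a log2 fold change of 1.15 ± 0.23 (SE, edgeR adjusted p = 0.00625). In TPM the libraries overlapped, at 0.469 and 0.769 in TKO and 0.703 and 0.182 in WT, and with transcript length allowed for the change was 0.47 (adjusted p = 0.553). The call was also lost without WT day 2 replicate 2 or TKO day 2 replicate 2 (adjusted p up to 0.0871). Zbtb38 had 29.0 and 27.7 CPM in TKO, against 23.0 and 20.1 CPM in WT (0.39 ± 0.12, adjusted p = 0.0421). That call was lost with the length correction, with the replicate number as a block, and without WT day 2 replicate 2 or either TKO day 2 replicate (adjusted p up to 0.374).

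At day 4 Mbd2 was higher and Mbd1 lower in TKO. Mbd2 had 13.7 and 15.7 CPM in TKO, against 8.97 and 9.72 CPM in WT, a log2 fold change of 0.65 ± 0.15 (SE, edgeR adjusted p = 0.00579). Mbd1 had 15.9 and 18.7 CPM in TKO, against 28.0 and 24.9 CPM in WT, a log2 fold change of -0.62 ± 0.11 (adjusted p = 0.000798). Neither gene overlapped between the genotypes, and both calls held under every alternative run, with adjusted p up to 0.0452 for Mbd2 and 0.0322 for Mbd1. Naive markers summed to 94.4 and 61.6 CPM in TKO and 32.0 and 36.3 CPM in WT on that day, and their part in these differences was not tested.

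At day 7 Mbd1 was higher and Zbtb4 lower in TKO. Mbd1 had 31.5 and 29.9 CPM in TKO, against 21.8 and 23.3 CPM in WT (0.44 ± 0.11 on the log2 scale, SE, edgeR adjusted p = 0.0040). The Mbd1 call was lost without WT day 7 replicate 1 or TKO day 7 replicate 1 (adjusted p up to 0.0695). Zbtb4 had 3.85 and 3.91 CPM in TKO, against 7.15 and 7.31 CPM in WT (-0.90 ± 0.20, adjusted p = 0.00219), and was -0.58 with adjusted p = 0.265 once transcript length was allowed for. Its TPM did not overlap either, with 1.43 and 1.48 in TKO and 1.81 and 2.12 in WT. Zbtb33 (0.23 ± 0.11, adjusted p = 0.110) and Mbd2 (0.30 ± 0.15, adjusted p = 0.138) were not called at day 7. Both were called, higher in TKO, when only the libraries compared were fitted. Markers of primitive streak and mesoderm (5 genes, T, Mixl1, Eomes, Mesp1 and Gsc) summed to 815 and 860 CPM in TKO and 178 and 143 CPM in WT at day 7, with none of the 5 at 0 in either genotype, and their part in these differences was not tested.

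**Figure D3:**
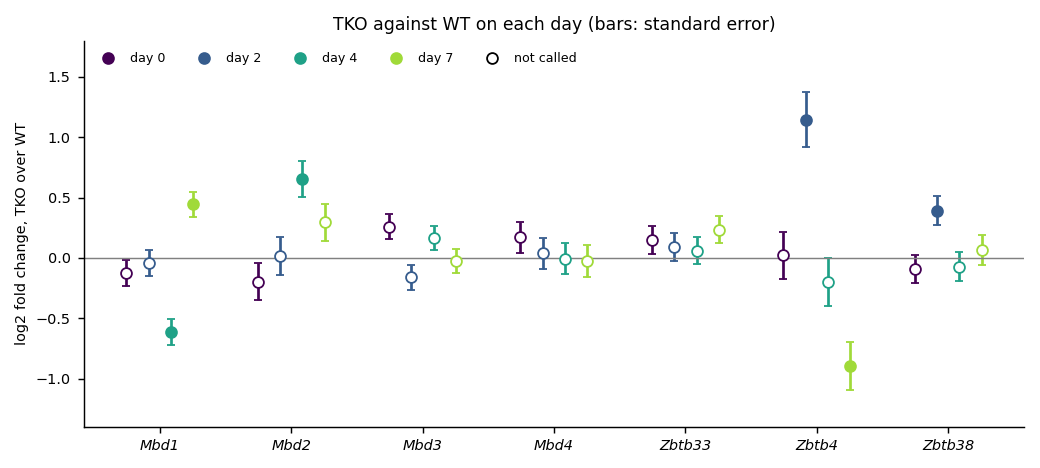
Log2 fold change of TKO over WT for each gene on days 0, 2, 4 and 7, with standard errors and open points where the edgeR test did not call the gene. Mbd1 changed sides, at -0.62 on day 4 and 0.44 on day 7, as did Zbtb4, at 1.15 on day 2 and -0.90 on day 7.

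Whether the gap between genotypes changed after day 0 was tested by an interaction term in the same fit. At day 2, 1 of 7 was called (7.56% of all genes), Zbtb4 with 1.13 ± 0.30 (SE, log2, edgeR adjusted p = 0.0365). At day 4, 2 of 7 were called (16.3% of all genes), Mbd2 with 0.85 ± 0.21 (adjusted p = 0.0157) and Mbd1 with -0.49 ± 0.15 (0.0408). At day 7, 2 of 7 were called (27.1% of all genes), Mbd1 with 0.57 ± 0.15 (adjusted p = 0.0121) and Zbtb4 with -0.92 ± 0.28 (0.0247). Each of these 5 calls was lost with the length correction and without single libraries, and over all alternatives the adjusted p reached 0.970, 0.0637, 0.144, 0.0868 and 0.255 in the order given. With the length correction the Zbtb4 value at day 2 was 0.11 (adjusted p = 0.970). The Mbd1 call at day 4 was also lost with the replicate block, and it and the Zbtb4 call at day 2 when only the libraries compared were fitted. For Zbtb4 the single libraries were WT day 0 replicate 2, TKO day 0 replicates 1 and 2, WT day 2 replicates 1 and 2 and TKO day 2 replicate 2 at day 2, and WT day 0 replicate 1, TKO day 0 replicate 2, WT day 7 replicate 2 and both TKO day 7 replicates at day 7. For Mbd2 they were WT day 0 replicate 1, both TKO day 0 replicates and WT day 4 replicate 1. For Mbd1 they were WT day 0 replicate 1, both TKO day 0 replicates, WT day 4 replicate 1 and TKO day 4 replicate 1 at day 4, and WT day 0 replicate 2, both TKO day 0 replicates, WT day 7 replicate 1 and TKO day 7 replicate 1 at day 7. Zbtb33 and Zbtb38 were called against day 0 in both genotypes on each later day. Their interaction values lay between -0.09 and 0.48 with standard errors of 0.16 or 0.17, and none was called in the main fit. Without WT day 0 replicate 1 the Zbtb38 values were 0.68 at day 2 and 0.36 at day 7, and both were called.

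The transcripts of Mbd2 changed in proportion over time, and at days 4 and 7 more in TKO than in WT libraries. Mbd2-201 encodes 414 codons over 7 exons, while Mbd2-202 has 3 exons, ends inside the gene and encodes 249 codons. The TPM of Mbd2-201 over that of Mbd2-202 was 0.352 and 0.407 at day 0, 1.19 and 0.992 at day 2, 2.65 and 1.82 at day 4, and 3.28 and 2.35 at day 7 in TKO. In WT it was 0.326 and 0.428, 1.01 and 2.05, 0.662 and 1.14, and 1.02 and 0.870. The genotypes overlapped at days 0 and 2, and the TKO ratios were above the WT ones at days 4 and 7. Mbd2-201 had 8.69 and 9.13 TPM in TKO at day 7, against 5.04 and 4.71 TPM in WT, and Mbd2-202 had 2.65 and 3.88 TPM in TKO, against 4.94 and 5.41 TPM in WT. The error of assigning reads to transcripts is not in the tables, so these values carry no test. A retained-intron transcript, Mbd2-204, ranged from 0.202 TPM in a TKO day 0 library to 6.50 TPM in a TKO day 4 library.

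Part of the day 2 rise of Mbd3 in TPM was assigned to a transcript with no coding sequence. Mbd3-205, a processed transcript of 3 exons inside the gene, had 47.7 and 49.6 TPM at day 2 and 15.6 and 18.0 at day 0 in TKO. In WT it had 64.2 and 63.4 TPM at day 2 and 11.1 and 13.5 at day 0. Its mean share of the gene's TPM at day 2 was 17.5% in TKO and 22.6% in WT. Its share of the gene's estimated counts was smaller, at 5.83% in TKO and 7.75% in WT at day 2, and 3.29% and 3.25% at day 0. The main coding transcript, Mbd3-204 (253 codons), also stood higher at day 2, with 88.8 and 97.0 TPM against 65.9 and 65.0 at day 0 in TKO, and 84.8 and 94.5 against 46.7 and 42.2 in WT. With coding transcripts alone, an alternative chosen after seeing the data, the same number of the 7 genes was called in every comparison. Mbd3-201 (285 codons), Mbd3-202 and Mbd3-206 each held between 5% and 27% of the gene's TPM.

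**Figure D4:**
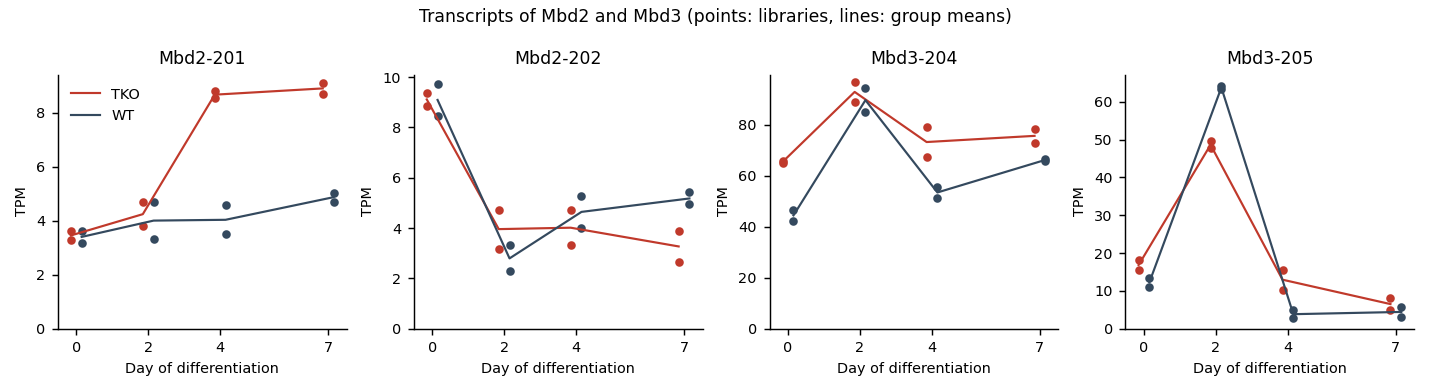
TPM of 2 transcripts of Mbd2 and 2 of Mbd3 against the day of differentiation, with a point per library and a line through group means, TKO in red and WT in dark blue. Mbd2-201 parted from WT at days 4 and 7 with 8.55 to 9.13 TPM in TKO against 3.49 to 5.04 TPM in WT, and the non-coding Mbd3-205 peaked at day 2.

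Zbtb33 and Zbtb38 kept their main transcripts. Zbtb33-201 and Zbtb33-202, which encode the same 671 codons and differ in their ends, held 72% to 95% and 5% to 27% of the gene's TPM. Of Zbtb38, Zbtb38-212 (1197 codons) held between 53% and 74% in each library and had 2.72 and 2.65 TPM at day 7 and 10.4 and 10.5 at day 0 in TKO, and 2.08 and 2.18 at day 7 and 8.33 and 12.6 at day 0 in WT. The 8 Zbtb38 transcripts from other starts summed to 2.30 and 0.571 TPM at day 7 and 6.67 and 6.41 at day 0 in TKO, and to 1.51 and 1.09 at day 7 and 3.31 and 5.12 at day 0 in WT. Among these 8, Zbtb38-210 gave 2.10 TPM in WT day 0 replicate 1 from 2 estimated counts. It gave 1.63 TPM in TKO day 7 replicate 1 from 1 count, and 1.96 and 1.59 TPM at TKO day 0 from 1.46 and 1.10 counts. These sums thus lean on few counts, and a fall of the other starts was not tested. Of Zbtb4, the transcripts Zbtb4-202 and Zbtb4-203 encode the same 982 codons with different ends. At day 2 Zbtb4-203 had 0.263 and 0.361 TPM in TKO and 0 and 0.0124 TPM in WT, and Zbtb4-202 had 0.206 and 0.264 TPM in TKO and 0.129 and 0.119 TPM in WT. The remainder in WT day 2 replicate 1 was given to short transcripts, Zbtb4-207 (136 codons) with 0.332 TPM among them. The main transcripts of Mbd1 and Mbd4 were Mbd1-204 (467 codons), with 41% to 56% of the TPM of Mbd1, and Mbd4-201 (554 codons), with 58% to 81% of that of Mbd4.

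For the 4 genes called at 2-fold or more in a comparison with day 0 or with WT, the protein-coding genes with the most similar log2 CPM over the 16 libraries were looked up among 17003, as a description in which all genes share libraries and depth. Zbtb33 was nearest to Trim44, Pgm2l1 and Gli3 (Pearson r 0.991, 0.990 and 0.990). Zbtb38 was nearest to Tex2, Zfp229 and Rnf125 (0.989, 0.985 and 0.983). Mbd3 was nearest to Grwd1, Srrt and Dohh (0.970, 0.968 and 0.967), and Zbtb4 to Actn1, Fbxo10 and Zfyve27 (0.960, 0.952 and 0.951).

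The NuRD subunits that work with Mbd2 and Mbd3 (13 genes, all tested) had 0 called higher and 6 called lower in TKO at day 7, against 44.5% of all genes called, with a median of -0.20 on the log2 scale against 0.00 over all genes. Chd3, a remodelling ATPase of the complex, stood at 54.1 ± 0.5 CPM in TKO and 26.7 ± 4.09 CPM in WT at day 0, and at 66.0 ± 0.8 CPM in TKO and 109 ± 4.97 CPM in WT at day 7 (SD, n = 2). It was higher in TKO by 1.02 ± 0.13 at day 0 (SE, edgeR adjusted p = 0.00039), by 1.00 ± 0.14 at day 2 and by 0.49 ± 0.13 at day 4, and lower at day 7 with -0.72 ± 0.13 (adjusted p = 0.00054). Its interaction at day 7 was -1.74 ± 0.19, and its day 7 value against day 0 was 2.03 ± 0.14 in WT and 0.29 ± 0.13 in TKO (adjusted p = 0.0649). Mta3 was lower in TKO at day 7 (-0.52 ± 0.09) and higher at day 4 (0.50 ± 0.08). Hdac1, a deacetylase, and Rbbp7, a histone chaperone, were lower in TKO at day 4, at -0.32 ± 0.08 and -0.52 ± 0.11. Cdk2ap1, a small subunit, rose by day 7 in TKO (1.61 ± 0.12) and WT (2.00 ± 0.13), while Mta3 fell in TKO (-0.997 ± 0.087) and WT (-0.80 ± 0.09). Day 0 calls of Rbbp7 and Mta3 and day 2 calls of Hdac1 and Rbbp4 in TKO against WT, all lower, were lost without either TKO library of the day, without WT day 0 replicate 1 or without WT day 2 replicate 2. The Chd3 call at day 4 was lost with the length correction and without TKO day 4 replicate 2 or WT day 4 replicate 2.

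Of the 5 partners of Mbd1 and Zbtb33, 1 was called higher and 1 lower in TKO at day 7, where 44.5% of all genes were called. Cbx5, the heterochromatin protein HP1 alpha, was at -0.40 ± 0.12 and Atf7ip, which ties Mbd1 to the methyltransferase Setdb1, at 0.35 ± 0.13 (SE, log2, edgeR adjusted p = 0.0180 and 0.0462), both calls being lost with the length correction and without either WT day 7 replicate or TKO day 7 replicate 2, that of Atf7ip also without TKO day 7 replicate 1. Suv39h1, a histone H3 lysine methyltransferase, rose by day 7 in TKO (0.94 ± 0.08) and WT (0.62 ± 0.08). Cbx5 rose by day 7 in WT (0.80 ± 0.12), and its interaction was -0.64 ± 0.17 (adjusted p = 0.0141, and 0.0560 without TKO day 7 replicate 2). Of the 6 other genes with a methyl-binding domain, 1 was called higher and 1 lower in TKO at day 7, against the same 44.5% of all genes. These were Setdb2 (0.43 ± 0.11) and Baz2a (-0.48 ± 0.14), both lost without WT day 7 replicate 2 or TKO day 7 replicate 1, Baz2a also without TKO day 7 replicate 2. Setdb1 and Baz2a fell by day 7 in TKO (-1.10 ± 0.07 and -1.82 ± 0.15) and in WT (-0.79 ± 0.07 and -0.92 ± 0.14). The interaction of Baz2a was -0.90 ± 0.20 (adjusted p = 0.00443).

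Among base excision repair genes that act beside Mbd4, 2 glycosylase genes moved over time in both genotypes. Ung, the uracil glycosylase, fell by day 7 in TKO (-1.45 ± 0.11, SE, log2) and WT (-1.14 ± 0.10), and Tdg, the other thymine glycosylase of CpG sites, rose in TKO (0.66 ± 0.08) and WT (0.91 ± 0.08).

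**Figure D5:**
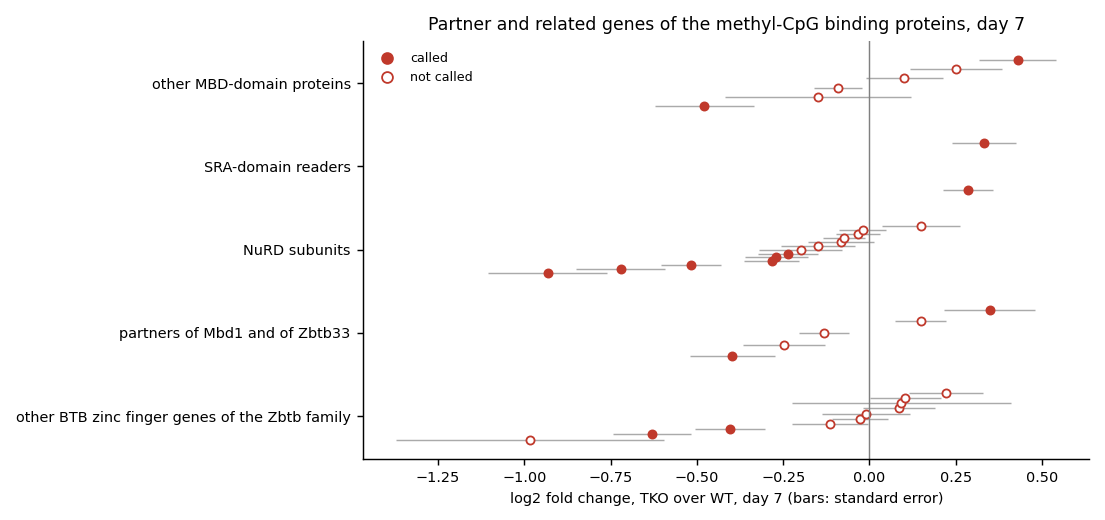
Log2 fold change of TKO over WT at day 7 for the genes of 5 lists of partners and relatives, a point per gene with its standard error, filled where the edgeR test called the gene. Of the 13 NuRD subunits 6 were called, all lower in TKO, and of the 10 other BTB zinc-finger genes 2 were called, both lower. Of all 18489 genes tested, 44.5% were called in either direction and 3903 were called lower.

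Among the NCoR and Sin3 corepressors that Zbtb33 and Zbtb4 recruit, Sin3b, a corepressor scaffold, was lower in TKO at day 7 (-0.51 ± 0.13, SE, log2, edgeR adjusted p = 0.00575). Tbl1xr1, an exchange factor of the NCoR complex, was lower at day 7, at -0.33 ± 0.08, a call lost with the length correction and without TKO day 7 replicate 2. Ncor1 fell by day 7 in TKO (-0.98 ± 0.18) and was at -0.45 ± 0.18 in WT (adjusted p = 0.0405, with -0.01 and adjusted p = 0.981 without WT day 0 replicate 2, and also lost without either WT day 7 replicate). Tbl1x rose by day 7 in WT (0.73 ± 0.08) and in TKO (0.30 ± 0.08, lost without TKO day 0 replicate 1 or TKO day 7 replicate 1), with an interaction of -0.43 ± 0.12 (adjusted p = 0.0136).

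Among 10 other BTB zinc-finger genes, 3 were called higher and 0 lower in TKO at day 0 (12.7% of all genes called), and 0 higher and 2 lower at day 7 (44.5% of all genes called). Zbtb7b had 0.50 ± 0.11 at day 0 and -0.63 ± 0.11 at day 7, with an interaction of -1.13 ± 0.16 (SE, log2, edgeR adjusted p = 0.00015), and its day 0 call was lost without WT day 0 replicate 1 or either TKO day 0 replicate. Zbtb24, a gene needed for methylation of some satellite repeats, was lower at day 7 (-0.40 ± 0.10). By day 7, 6 of the 10 fell in TKO and 6 of the 10 in WT, where 5862 and 6145 of the 18489 genes tested fell and 67.8% and 66.2% were called in either direction. Zbtb7a fell in TKO (-1.67 ± 0.13) and in WT (-1.53 ± 0.12). Zbtb16 rose in WT by day 7 (2.11 ± 0.41) and had -0.52 ± 0.39 in TKO (adjusted p = 0.257), with an interaction of -2.63 ± 0.57 (adjusted p = 0.00371). Uhrf2, one of the SRA-domain readers of hemimethylated or hydroxymethylated CpG, was lower in TKO at day 0 (-0.997 ± 0.101, adjusted p = 5.49e-05) and rose by day 7 in TKO (3.21 ± 0.10) and WT (1.88 ± 0.10), with an interaction of 1.33 ± 0.14. Uhrf1, the other, fell by day 7 in TKO (-1.35 ± 0.07) and WT (-1.58 ± 0.07). At day 7 both SRA-domain genes were called higher in TKO (0.29 ± 0.07 for Uhrf1 and 0.33 ± 0.09 for Uhrf2), calls lost without WT day 7 replicate 2 or TKO day 7 replicate 1, that of Uhrf1 also without WT day 7 replicate 1 and that of Uhrf2 without TKO day 7 replicate 2.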

How the data were processed

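The deposited tables give, per transcript and library, estimated counts, which are not scaled for depth, per the file headers. They also give TPM, scaled by the authors for depth and length, and an effective length, per the file headers. Transcripts were quantified with kallisto, its version not given in the sources used here, and builds GRCm38 and mm10 are named, per the submitters' processing notes. The library kit keeps strand, per the labels' protocols. Of 119414 transcripts, 116728 (97.8%) matched GENCODE vM21, the annotation used here, and were summed to 35975 genes. Unmatched transcripts held between 0.95% and 1.05% of a library's counts.

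Estimated counts per gene were rounded and fitted with edgeR 4.0.16 in R 4.3.3 (TMM, filterByExpr by group, robust quasi-likelihood, 1 mean per group over 16 libraries, 8 residual degrees of freedom), with Benjamini-Hochberg adjustment over 18489 genes and a threshold of 0.05. The SE was taken as the log2 fold change divided by the root of F. CPM uses TMM library sizes. DESeq2 1.42.0 was an alternative, as were a length offset, a replicate block and others named in the closing section. The script was tested on simulated data. Transcript values and level orders carry no test.

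The members and partner lists were chosen with earlier results of these data known. The rule for names was all 7 members, Dnmt1, Dnmt3a and Dnmt3b, for each list and each direction at most 2 called genes, those of lowest adjusted p, not all of which are printed, the 3 nearest genes of each member called at 2-fold, and transcripts holding 10% of a member's TPM. Correlations of replicate deviations between groups lay between -0.28 and 0.06 over 28 pairs of groups, and the main fit used no replicate block. These correlations cannot show whether a replicate number marks a shared day. The standard errors and p-values cover counting error and the spread between these libraries, and no wider spread. Some genes of the partner lists, and counts over the lists that hold them, are not reported here.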

Additional observations from a re-analysis of the deposited data

Results flagged for a closer look

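The difference between genotypes changed from day 0 by edgeR's test of the interaction in 5 cases, each given as the change in the log2 fold change of TKO over WT. Zbtb4 changed by 1.13 at day 2, a value of 0.11 (adjusted p = 0.970) once transcript length was allowed for, and by -0.92 at day 7. Mbd2 changed by 0.85 at day 4. Mbd1 changed by -0.49 at day 4 and by 0.57 at day 7. Mbd1 and Zbtb4 thus moved in opposite directions at different days, and both TKO libraries lay, in CPM, on the same side of both WT libraries in each of these cases. All 5 calls were lost with the length correction.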

How the results depend on the processing

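Of 98 pairs of a gene and a comparison, 44 were called, and 23 of these calls were lost under no alternative run. Leaving out a library lost 19 of the calls in some case and another setting lost 16, no called value changed sign, and 14 of 54 uncalled pairs were called in some setting. With the length offset 0 genes were called in TKO against WT at day 2, 1 at day 7, 1 over the mean of 4 days, 3 in WT at day 4, and 0 in the interactions at days 2, 4 and 7. A replicate block gave 1 gene in TKO against WT at day 2 and 1 in the interaction at day 4, and moved no other count of members by over 1.5 times. Fitting only the libraries compared gave 4 genes in TKO against WT at day 7, 0 in the interaction at day 2 and 1 at day 4. Over the mean of 4 days RLE scaling, no filter and DESeq2 each gave 1. Leaving out 1 library at a time gave 0 to 1 genes in TKO against WT at day 0, 0 to 2 at day 2, 1 to 2 at day 7 and 0 to 2 over the mean of 4 days. It gave 3 to 4 in WT at day 4, 3 to 5 in WT at day 7, and 0 to 3, 0 to 2 and 0 to 3 in the interactions at days 2, 4 and 7. The cause was not tested, and the share of all genes called under each alternative is not reported here. These counts thus cannot tell a shift of the 7 genes from a shift over all genes. Of 111 partner calls, 66 were lost under no alternative and 0 changed sign, and 153 of 760 partner counts moved by over 1.5 times. The order of the 7 genes changed in 0 of 56 places with counts per kilobase, while 143 of 224 transcript shares moved by more than the spread between replicates when taken from counts. Depth limits Zbtb4, with 32 to 303 counts in a library. With 2 libraries a group, differences of the size of the standard errors were not detectable.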
